A study of Homo sapiens with 6 samples.

Results

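Genes for splicing factors and RNA helicases were compared in RKO cells, an established human colorectal carcinoma line, between 48 h in fasting medium and 48 h in control medium. Members were taken by symbol. They are the listed genes named SRSF, HNRNP, DDX, DHX, SF3A or SF3B, RBM, LSM, SNRNP or SNRP, PRPF, SRRM, LUC7L, CPSF, CNOT, PABP, TRA2, U2AF, CELF, MBNL, ESRP, UPF or SMG. DDX58 and the CLK kinases were left out. This gave 37 members of 3511 genes in the deposited table. The cells were wild type, with no drug in the samples analysed here. Serum was 10% in control and 1% in fasting medium, and glucose 4.5 g/L and 1 g/L, so the parts of serum and glucose cannot be told apart. Each group had 3 libraries. RKO is 1 cell line, and the labels do not say that libraries of a group came from separate cultures. The p-values then reflect the spread among these 6 libraries alone, which may be technical.

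The table holds only genes that the authors had called, with a highest adjusted p of 0.04999 in the authors' deposited table. They are 11.8% of the 29845 genes tested there. Every member had therefore already been called on this same comparison, and that a member differs is not a finding here. In all 3511 listed genes (100%), and so in all 37 members, fasting and control libraries did not overlap. A lack of overlap is thus no trait of the members. What can be described is which members were listed, the direction and size of each difference, and how the libraries stood to each other. Within the members, the authors' deposited table gave the lowest adjusted p for DDX46 (8.23e-11) and the highest for PRPF38B (0.0462) and LSM14A (0.0448), which lay just inside its limit.

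Splicing removes introns from nuclear transcripts in the spliceosome, which is built from small nuclear ribonucleoproteins (snRNPs) and remodelled at each step by helicases of the DEAD-box (DDX) and DEAH-box (DHX) families. SR proteins and their partners promote the use of splice sites, while heterogeneous nuclear ribonucleoproteins (hnRNPs) coat transcripts and often oppose it. RBM proteins share a name and carry RNA recognition motifs, but their roles differ, as described below. MBNL proteins carry CCCH zinc fingers and choose among alternative exons. The mature mRNA is cut and polyadenylated by a complex that includes CPSF, bound at its tail by PABP proteins, and shortened from that tail by the CCR4-NOT deadenylases.

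Members split by family. All 7 listed RBM genes rose in fasting medium, with log2 fold changes of 0.67 to 1.15, and all 4 listed hnRNP genes fell, by 0.56 to 1.13 on the log2 scale. Of 8 listed helicase genes 7 fell and DDX50 rose. MBNL2 rose 2.63-fold while its relatives MBNL1 and MBNL3 fell. No gene of the 12 annotated SR proteins was listed, in a table that holds 15.4% of all protein-coding genes. In all, 35 of 37 members passed the test used here (limma on log2(normalized count + 1), Benjamini-Hochberg adjusted p under 0.05), 13 higher and 22 lower in fasting medium. The same test called 11.1% of all genes the authors tested, 5.85% higher and 5.25% lower, and 94.3% of the listed genes, 49.7% higher and 44.6% lower. Risers made up 37.1% of called members and 52.7% of all called genes. The median log2 fold change was -0.57 over members and 0.53 over all listed genes. After the authors' selection no member lay between -0.53 (LSM14A) and 0.55 (PRPF4), so these medians restate the shares of risers. They do not measure a shift in level. With the libraries scaled by their total reads in the listed genes, the count of risers went from 13 to 5. With RLE scaling, also over the listed genes alone, the count of fallers went from 22 to 13. Both scalings thus rest on genes selected on this same comparison, and neither uses the total depth. The split by direction depends on the scaling in this way. No single member changed sign under either, but neither scaling could have brought this about. They shift log2 fold changes by -0.48 and 0.20, less than the distance of any member from 0.

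Changes of members were small beside those of the table. The median size of the log2 fold change was 0.71 for members and 0.97 for all listed genes. Among called members, at least 2-fold rises were seen for 3, U2AF1L5, MBNL2 and RBM3 (8.57%, against 28.2% of all called genes), and at least 2-fold falls for 4, DDX60, DDX46, HNRNPD and MBNL3 (11.4% against 21.0%). These shares are descriptions and were not tested.

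**Figure D1:**
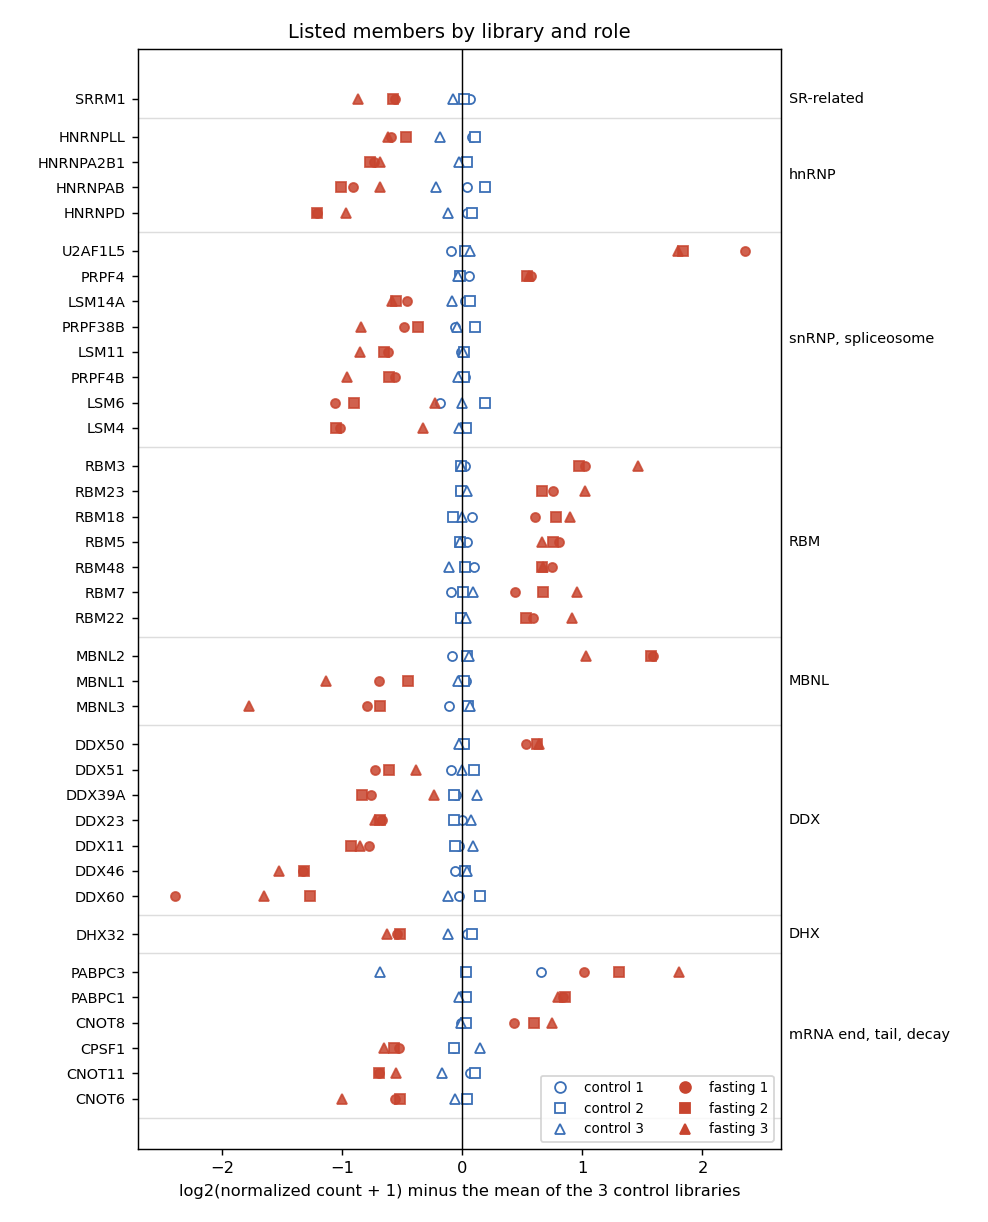
Each listed member by role (rows), as log2(normalized count + 1) minus the mean of the 3 control libraries (horizontal axis), with open blue symbols for control and filled red symbols for fasting libraries 1 to 3. All 7 RBM genes lie to the right of their controls and all 4 hnRNP genes to the left, and fasting replicate 3 (red triangles) often stands apart from the other fasting libraries.

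Membership of the table is given here by family, and differences between families were not tested. GENCODE release 29 annotates 247 protein-coding genes whose symbols fit the rule, and 37 (15.0%) were listed, close to the 15.4% of all 19951 protein-coding genes. All 3 MBNL genes were listed, 4 of 27 HNRNP, 4 of 13 LSM, 3 of 13 PRPF, 3 of 10 CNOT, 7 of 38 RBM and 7 of 38 DDX genes. For the 12 SRSF, 9 SF3A and SF3B, 19 SNRNP and SNRP, 10 UPF and SMG, 8 CELF and ESRP and 5 TRA2 and LUC7L genes, none was listed, so the SF3A and SF3B proteins of the U2 snRNP and the nonsense-mediated decay factors have no value here. At the share of all protein-coding genes, families this small would hold few listed genes. A gene that is not listed was not shown to be unchanged. The label of RNA helicase did not hold for every DDX gene, since DDX11 encodes a DNA helicase of chromosome cohesion, and PRPF4B encodes a protein kinase.

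Fasting replicate 3 stood apart from the other fasting libraries, and this touches several members. Its distance from the mean of fasting replicates 1 and 2 was larger than the gap between those 2 libraries for 29 of 37 members, as it was for 2484 of 2886 listed genes of at least 100 normalized counts. Over members it ran from -1.03 (MBNL3) to 0.75 (LSM6) on the log2 scale. Across the 37 members this distance had a Spearman correlation of -0.45 with transcript length, and across those 2886 genes it was -0.72. Genes of 1 library share that library, so these correlations describe it and carry no p. With the trend with length taken out, 14 members were higher and 18 lower and the median log2 fold change was -0.37. LSM11, MBNL1, MBNL3, DDX51 and CNOT6 no longer passed, and LSM6 and PABPC3 did. Reads in listed genes numbered 4017618 to 5602177 per control and 4187326 to 5071791 per fasting library, and the total depth is unknown. Of 10 colon epithelium markers only KRT18 was listed, and of 6 fibroblast, 5 leukocyte and 3 endothelium markers none was, so the cell type could not be checked on this table.

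**Figure D2:**
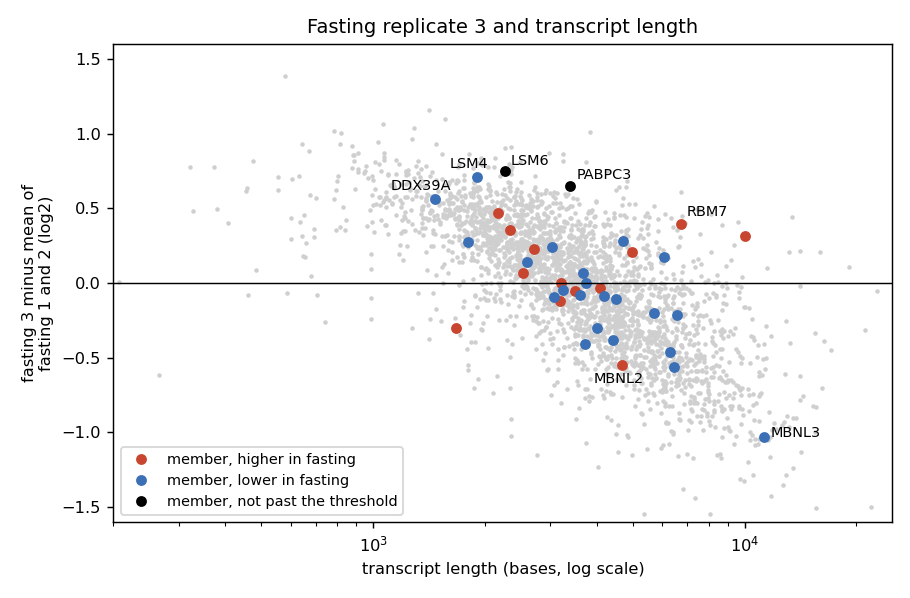
Distance of fasting replicate 3 from the mean of fasting replicates 1 and 2 (log2, vertical axis) against transcript length (bases, log scale), for listed genes (grey) and members (red higher, blue lower, black not past the threshold). Shorter members such as DDX39A, LSM4 and LSM6 lie above 0 and the long MBNL3 at -1.03, with RBM7 and others off this slope; grey points beyond the axes are not drawn.

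Upstream sequences are shown for the 6 members that have values by library below and hold heat shock or E2F letters before the gene start. The 8 motifs searched were chosen by hand with results of these data known, and the letters are a description only. RefSeq windows (GRCh38.p14, 250 bases before to 50 after the gene start, the first window per symbol) were found for 29 of 37 members. The bases before the start are printed 5′ to 3′ on the gene's strand. Capitals mark a heat shock element (GAANNTTC), an E2F element (TTTNNCGC), an antioxidant element (TGACNNNGC), an NRF1 element or an ETS element (CCGGAAG), read on both strands. N stands for any base, so patterns with N, such as that of E2F, are loose, and a match need not be a binding site. The risers RBM3 and RBM23 and the faller HNRNPA2B1 hold the first, and the fallers DDX46, DDX23 and MBNL1 hold the second. The E2F letters of the riser DDX50 and the faller SRRM1 lie after the start and are not printed.
RBM3 (chrX:48574234-48574483, plus strand): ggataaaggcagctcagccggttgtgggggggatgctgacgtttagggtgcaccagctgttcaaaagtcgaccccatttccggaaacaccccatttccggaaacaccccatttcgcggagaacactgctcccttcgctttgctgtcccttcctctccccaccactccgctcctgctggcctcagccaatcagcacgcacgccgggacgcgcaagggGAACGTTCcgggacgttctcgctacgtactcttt
RBM23 (chr14:22919150-22919399, minus strand): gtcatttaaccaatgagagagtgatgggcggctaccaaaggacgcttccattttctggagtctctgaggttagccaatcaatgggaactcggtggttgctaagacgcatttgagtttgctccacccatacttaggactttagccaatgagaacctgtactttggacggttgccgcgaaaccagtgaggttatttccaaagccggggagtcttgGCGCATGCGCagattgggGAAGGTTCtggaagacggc
HNRNPA2B1 (chr7:26200747-26200996, minus strand): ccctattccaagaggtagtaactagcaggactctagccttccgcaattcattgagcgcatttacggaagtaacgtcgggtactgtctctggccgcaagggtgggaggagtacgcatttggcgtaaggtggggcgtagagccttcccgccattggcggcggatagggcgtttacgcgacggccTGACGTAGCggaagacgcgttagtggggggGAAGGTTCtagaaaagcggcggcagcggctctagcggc
DDX46 (chr5:134758529-134758778, plus strand): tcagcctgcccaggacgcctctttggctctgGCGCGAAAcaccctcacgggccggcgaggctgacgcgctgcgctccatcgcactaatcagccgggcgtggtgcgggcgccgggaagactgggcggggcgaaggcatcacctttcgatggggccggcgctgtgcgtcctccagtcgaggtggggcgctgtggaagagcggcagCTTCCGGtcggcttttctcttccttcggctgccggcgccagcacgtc
DDX23 (chr12:48852164-48852413, minus strand): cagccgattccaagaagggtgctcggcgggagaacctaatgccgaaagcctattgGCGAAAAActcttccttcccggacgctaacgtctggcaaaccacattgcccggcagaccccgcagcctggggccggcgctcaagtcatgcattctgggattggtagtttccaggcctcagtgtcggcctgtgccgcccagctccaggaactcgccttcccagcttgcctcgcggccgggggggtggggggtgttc
MBNL1 (chr3:152268679-152268928, plus strand): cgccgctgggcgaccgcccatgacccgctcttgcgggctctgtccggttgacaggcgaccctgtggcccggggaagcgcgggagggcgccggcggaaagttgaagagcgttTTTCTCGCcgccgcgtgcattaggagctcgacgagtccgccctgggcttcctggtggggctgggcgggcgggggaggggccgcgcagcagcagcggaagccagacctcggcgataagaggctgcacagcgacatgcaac

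The E2F letters occurred in 7 of 29 member windows (24.1%) and in 6.90% of 27305 windows of all genes. Of these 7 genes DDX46, DDX23, DDX51, MBNL1, SRRM1 and HNRNPLL fell and DDX50 rose. Fallers are also the majority of all called members (22 of 35), and a link between these letters and direction was not tested. Heat shock letters occurred in 3 of 29 member windows (10.3%, against 6.87% of all windows), those of RBM3 and RBM23, which rose, and of HNRNPA2B1, which fell. The ATF4 letters TGATGNAA were in 1 window, that of the riser PRPF4 (3.45% against 3.67%), and the antioxidant letters in 6 windows (20.7% against 13.6%). ETS letters were found in 6 windows (20.7% against 10.7%) and the GC box GGGCGG in 18 (62.1% against 44.6%). Member windows were also richer in G and C, with a median of 61.3% against 58.3%. All members are protein-coding, while the 27305 windows outnumber the 19951 protein-coding genes and so include others. Shares over windows of protein-coding or listed genes were not taken. A match is a description of letters in a window, and binding was not measured.

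Among regulators of splice site choice, the SR-related gene SRRM1 (ENSG00000133226), a coactivator that bridges SR proteins and the exon junction, was the only member of its group. Normalized counts (reads divided by the size factor of the library) were 2287, 2205 and 2076 in controls and 1483, 1467 and 1198 in fasting libraries, each given in the order of the replicate numbers here and below. SRRM1 fell by 0.67 on the log2 scale (SE 0.11, limma adjusted p = 3.89e-03). Of its 50-base stretches 22.5% also occur in transcripts of other genes, so its reads may be divided between them.

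By summed normalized counts the hnRNP genes formed the most abundant group of fallers. HNRNPD (ENSG00000138668), which encodes AUF1, a binder of AU-rich elements that governs mRNA decay, had 7453, 7666 and 6663 normalized counts in controls and 3129, 3137 and 3702 in fasting libraries. It fell by 1.13 on the log2 scale (SE 0.10, limma adjusted p = 3.03e-04). HNRNPAB (ENSG00000197451), a close relative, fell from 7222, 8027 and 6052 to 3749, 3492 and 4381 (log2 fold change -0.87, SE 0.13, limma adjusted p = 3.18e-03). These 2 genes are the only listed ones with the CARG-binding factor N-terminal domain in the InterPro terms of the deposited table. HNRNPA2B1 (ENSG00000122566), which packages nascent transcripts and takes part in splicing and RNA transport, had 16909, 17379 and 16623 normalized counts in controls against 10157, 9977 and 10543 in fasting libraries. Its log2 fold change of -0.73 (SE 0.08, limma adjusted p = 7.22e-04) came with a narrow spread in both groups. HNRNPLL, a regulator of alternative splicing in lymphocytes, fell the least, by 0.56, from 884 ± 95.2 to 597 ± 35.1 normalized counts (SD, n = 3 each). Its call was lost without control replicate 1 or 2 (limma adjusted p = 0.0677 and 0.0660) and with RLE scaling (0.0915). The summed level of the 4 genes was 30112 to 34021 in controls and 17243 to 19197 in fasting libraries.

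RBM genes moved the other way. RBM3 (ENSG00000102317), known as a cold-inducible RNA-binding protein that favours translation, had 1513, 1472 and 1475 normalized counts in controls and 3014, 2908 and 4088 in fasting libraries. The rise was 2.22-fold (log2 fold change 1.15, SE 0.13, limma adjusted p = 9.31e-04), and 0.99 on the log2 scale without fasting replicate 3, the highest of the libraries. RBM23 (ENSG00000100461), a relative of the splicing factor RBM39, went from 819, 823 and 854 to 1401, 1318 and 1693 (log2 fold change 0.81, SE 0.11, limma adjusted p = 1.75e-03). RBM18 (ENSG00000119446), a little-described protein with an RNA recognition motif, was at 415, 371 and 390.3 in controls and at 595, 675 and 732 in fasting libraries (log2 fold change 0.76). Controls of these genes lay close together.

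The other RBM genes rose by 0.67 to 0.74 log2 units. RBM5, which regulates the splicing of apoptosis genes, rose by 0.74 from 583 ± 13.97 to 975 ± 47.9 normalized counts (SD, n = 3 each). RBM48, a factor of the minor spliceosome that removes U12-type introns, rose by 0.70, and RBM22, which contacts the active site of the spliceosome, by 0.67. RBM7, a subunit of the nuclear exosome targeting complex, rose by 0.69, but did not pass when fasting replicate 2 or any 1 control library was left out (limma adjusted p = 0.0537 to 0.0855). With total-read scaling RBM3 (0.67) and RBM23 (0.34) still passed, and RBM18, RBM5, RBM48, RBM22 and RBM7 did not, at 0.20 to 0.29. Exons of RBM5 overlap those of RBM6 on the same strand and an antisense gene, and 13.0% of its 50-base stretches occur in RBM6 or other genes, so its reads cannot be fully told from theirs. RBM7 shares 8.22%.

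MBNL genes changed in opposite directions. MBNL1 and MBNL2, zinc finger proteins that switch exons between fetal and adult patterns, and MBNL3, the third of the family, are close paralogues. MBNL2 (ENSG00000139793) had 350.1, 383 and 387 normalized counts in controls and 1125, 1109 and 763 in fasting libraries, a rise of 1.40 log2 units (SE 0.16, limma adjusted p = 8.16e-04). MBNL1 (ENSG00000152601) was at 1902, 1887 and 1817 in controls and at 1154, 1365 and 851 in fasting libraries (log2 fold change -0.76, SE 0.16, limma adjusted p = 0.0169). For MBNL3 (ENSG00000076770) the values were 351, 391 and 396 against 218, 234 and 110.0 (log2 fold change -1.09, SE 0.27, limma adjusted p = 0.0366). Fasting replicate 3 was the lowest of the fasting libraries for each of the 3 genes, though for MBNL2 it stayed above all controls. Without it the log2 fold changes were 1.58, -0.57 and -0.74.

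Calls of MBNL1 and MBNL3 were less firm than that of MBNL2. Both were lost without any 1 control library (limma adjusted p = 0.0709 to 0.0791 for MBNL1 and 0.101 to 0.159 for MBNL3), with RLE scaling (0.104 and 0.118) and with the trend with transcript length removed (0.0891 and 0.153). A share of the MBNL sum does not depend on scaling. MBNL2 made up 13.4%, 14.4% and 14.9% of the summed normalized counts of the 3 genes in controls and 45.0%, 40.9% and 44.3% in fasting libraries, so fasting replicate 3 lay between the other 2 here. MBNL1 went from 69.9% to 73.1% down to 46.2% to 50.4%. Per kilobase of transcript, MBNL2 made up 18.7% to 20.7% of the sum in controls and 50.6% to 54.9% in fasting libraries. On this measure MBNL1 made up 40.7% to 45.0% in fasting libraries, less than MBNL2. The ratio of MBNL2 to MBNL1, in counts not divided by length, was 0.200 ± 0.0146 in controls and 0.895 ± 0.0812 in fasting libraries (SD, n = 3 each). Its direction follows from setting a riser over a faller. With 3 libraries against 3 an exact permutation test cannot go below 0.1, and none was run. No 50-base stretch of these transcripts occurs in another gene, but exons of MBNL1 overlap an antisense gene, and whether counting used the strand is not known.

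**Figure D3:**
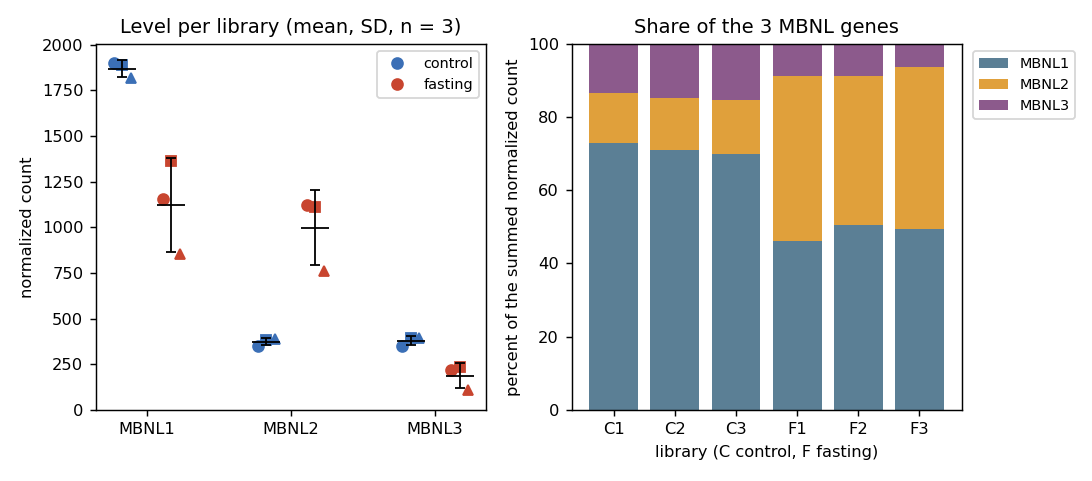
Left, normalized counts of MBNL1, MBNL2 and MBNL3 in control (blue) and fasting (red) libraries, with circle, square and triangle for replicates 1 to 3 and black lines for the mean and SD (n = 3). Right, the share of each gene in their summed normalized count by library (percent), in which MBNL2 goes from 13.4% to 14.9% in controls to 40.9% to 45.0% in fasting libraries.

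Of the 8 listed members with LSM, PRPF or U2AF symbols 5 fell, 2 rose and LSM6 did not pass. The fallers include LSM11 of the U7 snRNP, LSM14A of P-bodies and the kinase PRPF4B. These counts therefore do not describe the core of the spliceosome alone. PRPF4 (ENSG00000136875), a protein of the U4/U6 snRNP, rose from 1705, 1618 and 1599.7 normalized counts in controls to 2432, 2388 and 2406 (log2 fold change 0.55, SE 0.07, limma adjusted p = 1.78e-03). The fasting libraries lay within a narrow range. With total-read scaling its log2 fold change was 0.08 and did not pass. PRPF4B (ENSG00000112739), a kinase of spliceosome assembly that shares only its name with PRPF4, fell from 1131, 1123 and 1088 to 754, 730.1 and 571 (log2 fold change -0.71, limma adjusted p = 5.09e-03). The ratio of PRPF4 to PRPF4B, free of scaling, was 1.47 ± 0.0329 in controls and 3.57 ± 0.560 in fasting libraries (SD, n = 3 each). A riser was set over a faller here, so the direction of this ratio was fixed by the choice of the pair. PRPF38B, another spliceosomal protein, fell by 0.57, a call that did not hold when fasting replicate 1 or any 1 control library was left out (limma adjusted p = 0.0614 to 0.135) and with RLE scaling (0.249).

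Sm-like LSM proteins form rings that sit on U6 snRNA in the nucleus or promote decapping in the cytoplasm. LSM4 (ENSG00000130520), present in both rings, had 4115, 4208 and 4054 normalized counts in controls and 2029, 1983 and 3282 in fasting libraries. Fasting replicate 3 lay much nearer the controls than its 2 companions. The log2 fold change was -0.80 (SE 0.18, limma adjusted p = 0.0256), -1.04 without fasting replicate 3, and the call was lost on leaving out any other library (limma adjusted p = 0.0990 to 0.109) and with RLE scaling (0.0829). LSM6 (ENSG00000164167), a partner in the same rings, was at 208, 271 and 237 in controls and at 113, 127 and 202 in fasting libraries, and did not pass (log2 fold change -0.73, limma adjusted p = 0.101). Without fasting replicate 3 it was -0.98 with an adjusted p of 2.92e-05.

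LSM11, a subunit of the U7 snRNP that processes histone pre-mRNA ends, fell from 271 ± 2.63 to 166 ± 14.1 normalized counts (SD, n = 3 each; log2 fold change -0.71), and did not pass after removal of the length trend (-0.21, limma adjusted p = 0.594). LSM14A, a component of P-bodies, fell by 0.53. U2AF1L5 (ENSG00000275895) had the largest rise of the members, from 97.6, 106 and 109 to 536, 373 and 363 normalized counts (log2 fold change 1.99, SE 0.17, limma adjusted p = 2.13e-04). It is a near-identical copy of U2AF1, the subunit that reads the 3′ splice site, and 93.8% of its 50-base stretches occur in U2AF1 or other genes. U2AF1 was not listed, and how reads were divided between the copies is uncertain.

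Helicase genes mostly fell. DDX46 (ENSG00000145833), the human PRP5 that loads the U2 snRNP on the branch site, had 2209, 2341 and 2368 normalized counts in controls and 915, 922 and 799 in fasting libraries, a log2 fold change of -1.39 (SE 0.09, limma adjusted p = 7.21e-05), the lowest adjusted p of the members. DDX23 (ENSG00000174243), the human PRP28 that releases U1 from the 5′ splice site, went from 2273, 2173 and 2387 to 1429, 1417 and 1375 (log2 fold change -0.69, SE 0.08, limma adjusted p = 7.92e-04). These are the spliceosomal helicases among the members. DHX32 (ENSG00000089876), the only listed DHX gene of 16, was at 752, 774 and 674 in controls and at 503, 509 and 474 in fasting libraries (log2 fold change -0.56).

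DDX11 (ENSG00000013573), an iron-sulfur DNA helicase needed for sister chromatid cohesion, fell from 1024, 999 and 1104 to 606, 546 and 576 (log2 fold change -0.85, SE 0.09, limma adjusted p = 5.71e-04). Of its 50-base stretches 42.4% occur in other genes. Its pseudogene copies DDX12P (-1.22) and DDX12B (-0.81), which carry no name in the deposited table and are not members, were lower as well, so reads of the 3 cannot be fully told apart. DDX39A, a factor of mRNA export, fell by 0.61 with an adjusted p of 0.0490, and did not pass when 1 library other than fasting replicate 3 was dropped (limma adjusted p = 0.126 to 0.231) or RLE scaling was used (0.252). Fasting replicate 3 held 1423 normalized counts of it against 986 and 937 in the other fasting libraries and 1599 to 1823 in controls. DDX51, which acts in the making of the large ribosomal subunit, fell by 0.57, and lost its call without control replicate 2 or 3 or fasting replicate 2 (limma adjusted p = 0.0521 to 0.0736), with RLE scaling (0.0832) and with the length trend removed (0.254).

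DDX50 (ENSG00000107625), a nucleolar paralogue of DDX21, was the one helicase gene that rose, from 729, 726 and 707 to 1038, 1107 and 1123 (log2 fold change 0.59, SE 0.08, limma adjusted p = 1.81e-03). With total-read scaling the log2 fold change was 0.12 and did not pass, and 10.3% of its 50-base stretches occur in other genes. The ratio of DDX50 to DDX46 was 0.313 ± 0.0158 in controls and 1.25 ± 0.142 in fasting libraries (SD, n = 3 each). This pair sets the one riser over a strong faller, so the direction of the ratio was fixed by the choice. DDX60 (ENSG00000137628), an interferon-inducible helicase-like protein, had the largest fall (log2 fold change -1.77), at low levels (82.8, 93.8 and 77.8 against 15.2, 34.5 and 26.1 normalized counts). The values by library of DDX60, DDX39A and PABPC3 were chosen for printing after they were seen. Its lowest library held 12 reads. By the InterPro terms of the deposited table, 24 listed genes carry a helicase ATP-binding domain, and 20 fell and 2 rose. Outside the members 13 of 16 fell and 1 rose, so falls outnumbered rises among listed genes with this domain, members or not. The domain term alone does not show that a gene encodes a helicase. Of 26 listed genes with an RNA recognition motif 18 rose and 6 fell, among them 9 risers and 4 fallers of 14 members.

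At the 3′ end of mRNA the members went both ways. PABPC1 (ENSG00000070756), the main cytoplasmic poly(A)-binding protein, had 29731, 30443 and 29200.1 normalized counts in controls and 53234, 53963 and 51719 in fasting libraries. Its rise of 1.78-fold (log2 fold change 0.83, SE 0.09, limma adjusted p = 7.34e-04) was the largest in reads of all members, and it passed with total-read scaling too (0.35). Of its 50-base stretches 11.99% occur in other genes, such as PABPC3. PABPC3, an intronless relative, was at 23.7, 14.9 and 8.72 in controls and at 30.5, 37.7 and 53.6 in fasting libraries, and did not pass (log2 fold change 1.37, limma adjusted p = 0.0521). Its reads, 12 to 39 per library, may in part belong to PABPC1. CPSF1 (ENSG00000071894), the largest subunit of the cleavage and polyadenylation specificity factor, fell from 2808, 2803 and 3263 to 2050.1, 1989.5 and 1874 (log2 fold change -0.58), and did not pass with RLE scaling (limma adjusted p = 0.0539).

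Subunits of the CCR4-NOT deadenylase split as well. CNOT8 (ENSG00000155508), a catalytic subunit of the CAF1 type, rose from 597, 615 and 598 to 815, 913 and 1012 normalized counts (log2 fold change 0.59, SE 0.10, limma adjusted p = 5.64e-03), and did not pass with total-read scaling (0.12). CNOT6 (ENSG00000113300), a catalytic subunit of the CCR4 type, fell from 1705, 1711 and 1598 to 1129.8, 1163 and 832 (log2 fold change -0.70, SE 0.13, limma adjusted p = 0.0106). That call was lost without control replicate 1 or 2 (limma adjusted p = 0.0584 and 0.0555), with RLE scaling (0.0788) and with the length trend removed (0.0510). CNOT11 (ENSG00000158435), a scaffold-bound subunit, fell from 1261, 1299 and 1076 to 746, 748 and 824 (log2 fold change -0.65). The ratio of CNOT8 to CNOT6 was 0.361 ± 0.0123 in controls and 0.908 ± 0.269 in fasting libraries (SD, n = 3 each), with fasting replicate 3 at 1.22 and the others at 0.721 and 0.785. Again a riser was set over a faller, which fixed the direction.

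**Figure D4:**
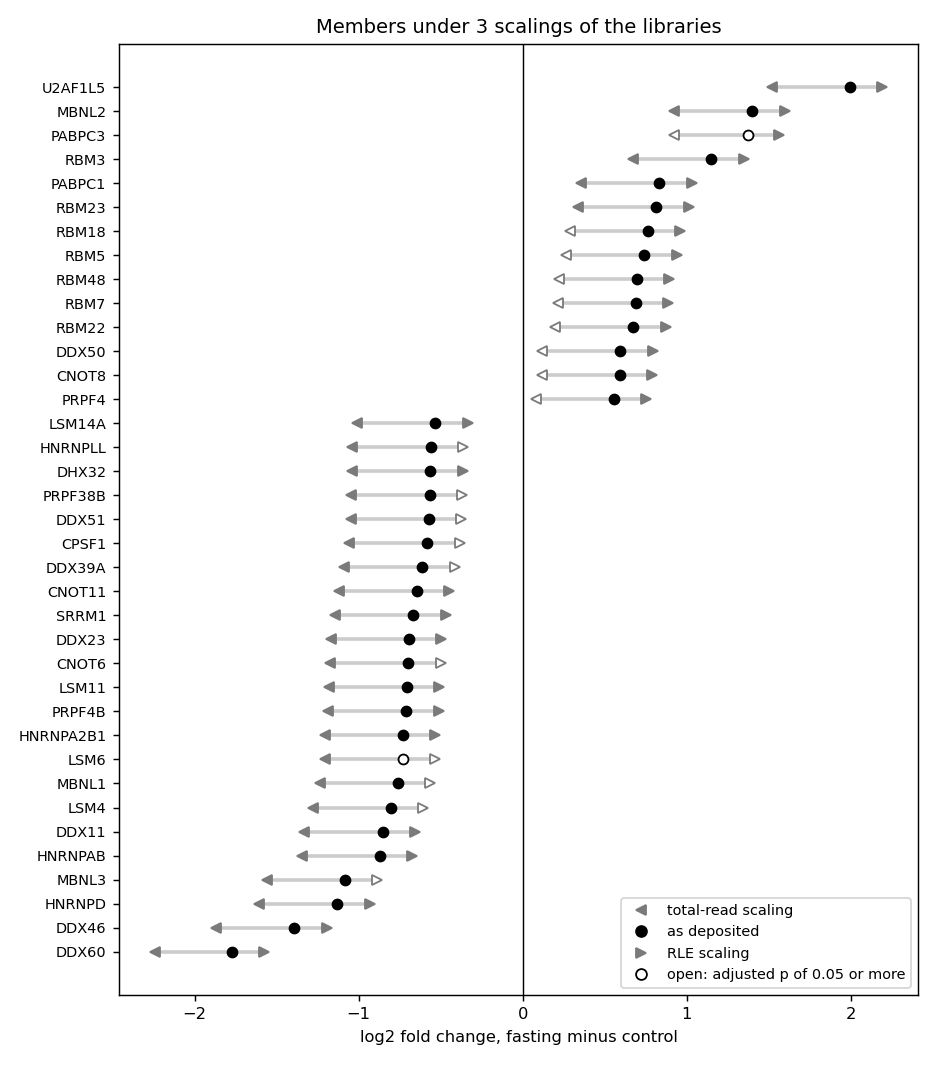
Log2 fold change of each member, fasting minus control (horizontal axis), as deposited (circles) and with total-read (left triangles) and RLE scaling (right triangles). Both scalings were taken over the listed genes alone. Open symbols did not pass an adjusted p of 0.05. Total-read scaling moves all members to the left by up to 0.48 and RLE scaling to the right by up to 0.20. Both shifts are smaller than the distance of any member from 0, so none could cross it.

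Shares, ratios and group levels above used normalized counts not divided by length, except where per kilobase is named. Here levels are compared between genes per kilobase of transcript, taking the longest protein-coding transcript in GENCODE. In controls PABPC1 was highest at 8548 normalized counts per kilobase, followed by HNRNPA2B1 at 4632, HNRNPAB at 3953, HNRNPD at 2394 and LSM4 at 2162. In fasting medium PABPC1 stood at 15200 and HNRNPA2B1 at 2791. DDX60 (13.97 in controls) and PABPC3 (4.66) were the lowest. The length of the transcript that RKO cells use is not known from these data, which limits this order.

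Other genes of mRNA processing that the symbol rule does not reach were taken as 6 lists with 179 genes. Of these 24 (13.4%) were listed, 12 higher and 12 lower. Their median log2 fold change of 0.00 restates this even split, since none lay between -0.58 (FUBP1) and 0.58 (PNRC2). Of 54 other spliceosome factors 8 were listed. The splicing factors BCAS2 (1.28), SYF2 (1.22), SLU7 (1.103), PLRG1 (0.95) and BUD31 (0.96) rose, and PNN (-0.86), CHERP (-0.87) and SUGP2 (-0.59) fell. Of 34 other splicing regulators 5 were listed, with PCBP2 (1.02) higher and the paralogue PCBP1 (-1.08), ELAVL1 (-0.64), DYRK2 (-0.65) and FUBP1 (-0.58) lower.

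Of 21 exon junction and export factors NXF1 (1.19), the main mRNA export receptor, and THOC5 (0.79) rose and THOC3 (-0.999) fell. Of 36 other decay factors ZFP36 (1.602), PNRC1 (1.19) and PNRC2 (0.58) rose and EDC4 (-0.99), EXOSC9 (-0.70) and EXOSC6 (-0.63) fell. NUDT21 (-0.61) was the 1 listed gene of 16 other 3′ end factors and USPL1 (0.72) of 18 snRNP assembly factors. Calls of CHERP, SUGP2 and FUBP1 were lost without any 1 control library, that of DYRK2 without fasting replicate 2 or any 1 control library, that of EXOSC6 without control replicate 1 or 2 or fasting replicate 1 or 2, and that of BUD31 without control replicate 3. With total-read scaling BUD31, PCBP2, USPL1 and PNRC2 did not pass, and with RLE scaling CHERP, SUGP2, DYRK2, FUBP1 and EXOSC6 did not. With the length trend removed SUGP2, DYRK2, ELAVL1 and EXOSC6 did not pass. Kinases of the CLK family, which phosphorylate SR proteins, are not counted as members. CLK1 rose 6.87-fold, from 561 ± 27.2 to 3868 ± 331 normalized counts (SD, n = 3 each), and CLK4 rose 1.91-fold (limma adjusted p = 5.53e-06 and 1.16e-03).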

How the data were processed

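RNA was sequenced from 6 libraries, 3 per medium. Per the labels' protocols, total RNA went into strand-specific libraries. Per the submitters' processing notes, the tools were DESeq 1.10.1, HTSeq 0.6.1 and UMI-tools 1.0.0, with no role or order. The sources used here name no aligner, genome build or annotation, nor whether counting used the strand. The deposited sample columns hold a signal, normalized counts that equal reads divided by a size factor per library (0.727 to 1.41). All values (100%) were whole reads within 0.01 read. The authors' deposited log2 fold change and p-value columns were used only where named.

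Limma 3.58.1 (R 4.3.3), with a mean-variance trend and moderated variance, was fitted to log2(normalized count + 1) for the listed genes whose mean reached 1 in either group, which all 37 members passed. P-values were two-sided and adjusted over all 29845 genes the authors tested, unlisted genes at p = 1, with a threshold of 0.05. The moderation was estimated on listed genes, all called before. Log2 fold changes are fasting minus control and understate the change of low genes. Calls were repeated with edgeR 4.0.16 and DESeq2 1.42.0 on recovered reads. Values by library were printed for up to 3 members per role and direction with the largest fold change and a mean of at least 100 in the higher group. DDX60, DDX39A and PABPC3 were added to these after their values were seen. Members, roles and lists were chosen with earlier results of these data known. The fit was tested on simulated data. Exons of 17 members overlap those of another gene, and 8 members share at least 5% of their 50-base stretches with other genes, so their reads may be divided.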

Additional observations from a re-analysis of the deposited data

How the results depend on the processing

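Under 20 alternatives no member changed sign, but most of them could not have brought this about. The shifts by total-read and RLE scaling were too small. Fasting and control libraries did not overlap in any member. Leaving out a library, or changing the pseudocount, filter, variance model, adjustment or block, therefore could not change a sign either. The call was kept in every alternative by 13 members (CNOT11, DDX11, DDX23, DDX46, DHX32, HNRNPA2B1, HNRNPD, LSM14A, MBNL2, PABPC1, RBM23, RBM3 and U2AF1L5). With total-read scaling 5 members were higher and the median log2 fold change of members was -1.05, and with RLE scaling 13 were lower and the median was -0.37. These scalings, both taken over the listed genes alone, shift log2 fold changes by -0.48 and 0.20 (less for low genes). The listed genes were selected on this comparison and cannot decide between them. Without moderation of the variance 10 members were lower. The median was -0.59 with edgeR and TMM scaling over the listed genes and -0.37 after removal of the length trend. With DESeq2, or with adjustment over the listed genes alone, all 37 passed, 14 higher and 23 lower. On leaving out 1 library, 12 to 14 members were higher and 14 (without control replicate 2) to 23 (without fasting replicate 3) lower, with medians of -0.61 to -0.52, and 9 of 35 calls were lost at least once. Counting only the members with little shared sequence, an alternative chosen after seeing the data, left 8 higher and a median of -0.61. With the replicate number as a block the counts stayed at 13 higher and 22 lower and the same calls held. Deviations of libraries of the same number were weakly correlated (0.0456, 0.0235 and 0.0798 over 3018 genes). Pairs of unlike number ran from -0.102 to 0.0907, the highest being control replicate 1 with fasting replicate 2. Such values cannot tell whether libraries of the same number shared a culture or a batch. Depth limits PABPC3 and DDX60 most, each with 12 reads in its lowest library.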
